A study of Mus musculus with 24 samples.

Results

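The genes that build sterols and fatty acids were read in mouse bone marrow-derived macrophages with and without Cited2. The set had 33 members, picked by name from the symbol column of the deposited table, which held 43629 genes in all. It held 18 enzymes that lead from acetyl-CoA to cholesterol, 6 regulators or carriers of sterols (Srebf1, Srebf2, Scap, Insig1, Insig2 and Stard4) and 9 enzymes of fatty acid synthesis and desaturation. All 33 members were found and passed the filter on low values, which 18637 genes passed. The rule that names them uses no measured value, but the set was proposed with earlier results of these data known.

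Cells make cholesterol from acetyl-CoA through mevalonate, farnesyl pyrophosphate, squalene and lanosterol, and they make fatty acids from the same acetyl-CoA by carboxylation, chain building, elongation and desaturation. Both routes are known targets of the sterol regulatory element-binding proteins, which Srebf1 and Srebf2 encode. Scap escorts these proteins from the endoplasmic reticulum to the Golgi, where they are cut and released, and the Insig proteins hold Scap back when sterols are plentiful. In macrophages these routes supply membranes and lipid signals and are known to be reset when the cells are activated.

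The macrophages were labelled BMDMs, cells grown from bone marrow, here of C57BL/6 mice at postnatal week 10. They were either wild type (WT) or CITED2-KO (KO), and CITED2 is a transcriptional co-regulator. Each genotype was kept as control or given LPS, a bacterial cell wall component, IFNg, a T cell and NK cell cytokine, or IL4, a cytokine of type 2 immunity. Total RNA was sequenced in 3 libraries for each of the 8 groups, 24 in all. The labels give no dose, no treatment time and no description of the deletion, such as the allele or the cells in which it acts. Nor is it stated that the libraries of a group stem from different mice or dishes, and a p-value here reflects the scatter of these libraries alone, which may be technical. In such bulk samples, fewer cells of a type and less RNA per cell cannot be told apart.

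The libraries held 1478507 to 73409343 reads in genes. KO LPS replicate 1 was the shallowest by far, and there 1 read was worth 23.6 normalised units and 3 reads 70.9, so that its low genes were poorly measured. The KO against WT differences with LPS and the interactions with LPS are therefore given with and without that library. Cited2 stood at 2298, 2179 and 2144 normalised counts in WT control cells and at 20.2, 39.7 and 23.7 in KO control cells, and in the 4 treatments the KO mean was 0.558% to 1.35% of the WT mean. All 8 macrophage markers (such as Csf1r, Cd68 and Lyz2) had a mean of at least 10 in every group. Of the 5 adipocyte markers, which matter here because adipocytes are rich in lipid enzymes, Plin1, Cidec and Lep were at 0 in all 24 libraries. The 5 summed to 0 to 1.08 in WT control cells and to at most 15.1 in any library. Adipoq, the only 1 of them that passed the filter, was higher with IL4 in WT cells (log2 difference 3.57), where the sum was 13.7 to 15.1. Of the 8 macrophage markers, 4 were lower and none higher in KO control cells, 3 lower and 1 higher with LPS, 4 lower and 1 higher with IFNg, and 1 lower and 2 higher with IL4. Of all genes tested, 3.05% were lower and 4.11% higher in control medium, 12.5% and 9.7% with LPS, 4.21% and 4.83% with IFNg, and 3.14% and 6.14% with IL4. Without KO LPS replicate 1, 6 of the 8 markers were lower in KO control cells, against 4.44% of all genes, and the marker counts with LPS, IFNg and IL4 did not change. Their sum separated the genotypes with IFNg (152718 to 159796 in KO against 169842 to 172384 in WT libraries) and, in the other direction, with IL4 (202704 to 205025 against 195080.3 to 196400.4). Of the 7 other marker lists, the 7 neutrophil markers summed to less in KO than in WT cells with control medium (964 to 1092 against 1111 to 1369.8) and with IL4 (248 to 289.7 against 447 to 556). Of the 6 neutrophil markers tested, 3 were called lower in control medium (median -0.95) and 4 with IL4 (median -1.44). None had a difference above 0 in either, and 3.05% and 3.14% of all genes were lower. The sum of the 5 dendritic cell markers was lower in KO cells with IFNg (56.9 to 71.2 against 141 to 158, most of it Xcr1) and with IL4 (11.7 to 17 against 22.6 to 32.3, most of it Zbtb46). Of the 4 tested, 2 had a difference above 0 with each of these treatments, and none was called. The sum of the 5 fibroblast markers was lower with IFNg (239 to 293 against 301 to 352) and with IL4 (350.4 to 487 against 494 to 506). In each case 1 of the 5 was called lower, while 1 had a difference above 0 with IFNg and 2 with IL4. The sum of the 5 T and NK cell markers was higher in KO cells with IFNg (32.6 to 49.1 against 21.5 to 30.9) and with IL4 (43.59 to 60.3 against 33.4 to 43.48), with none called. The sum of the 5 B cell markers was higher with LPS (18.5 to 23.6 against 6.33 to 12.2), where 1 was called higher. All other sums but one overlapped between the genotypes; that one, the adipocyte sum with IL4, is given beside the fatty acid enzymes. The part of these other cells in the results was not tested.

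Promoter sequence is shown for 5 members named in the results that follow: 3 sterol enzymes, the regulator Insig1 and the fatty acid synthase gene. All of them hold a match to a motif searched, so they do not stand for the members as a whole. Cyp51, which has an entry, is not shown. Its CCAAT lies 25 bases before the RefSeq start, inside the annotated gene. Each sequence lies upstream of the RefSeq start and of the annotated gene (build GRCm38), reads 5′ to 3′ on the gene's strand, and comes from RefSeq's table for GRCm38.p6. The spans are chr13:119690101-119690350, plus strand for Hmgcs1, chr1:169969242-169969455, minus strand for Hsd17b7, chr9:42264301-42264550, minus strand for Sc5d, chr5:28071162-28071362, plus strand for Insig1 and chr11:120824548-120824797, minus strand for Fasn. Capitals mark CCAAT, the letters that the factor NF-Y is known to bind, on either strand (ATTGG is the same motif on the other strand), and in Hmgcs1 also TCACNCCAC, a form of the sterol regulatory element.
Hmgcs1: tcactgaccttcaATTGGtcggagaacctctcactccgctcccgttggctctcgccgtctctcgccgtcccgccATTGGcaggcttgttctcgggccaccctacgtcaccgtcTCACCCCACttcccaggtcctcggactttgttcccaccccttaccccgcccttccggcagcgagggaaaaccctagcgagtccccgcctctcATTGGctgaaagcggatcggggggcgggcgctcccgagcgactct
Hsd17b7: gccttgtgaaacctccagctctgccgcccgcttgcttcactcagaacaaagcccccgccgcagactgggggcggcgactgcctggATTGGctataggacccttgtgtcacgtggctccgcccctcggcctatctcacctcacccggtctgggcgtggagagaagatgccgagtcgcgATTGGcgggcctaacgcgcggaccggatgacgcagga
Sc5d: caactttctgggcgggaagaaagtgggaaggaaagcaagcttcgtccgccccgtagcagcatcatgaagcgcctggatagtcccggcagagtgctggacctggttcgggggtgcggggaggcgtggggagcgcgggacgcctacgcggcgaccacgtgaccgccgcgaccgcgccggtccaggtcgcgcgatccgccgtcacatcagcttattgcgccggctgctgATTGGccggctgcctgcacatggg
Insig1: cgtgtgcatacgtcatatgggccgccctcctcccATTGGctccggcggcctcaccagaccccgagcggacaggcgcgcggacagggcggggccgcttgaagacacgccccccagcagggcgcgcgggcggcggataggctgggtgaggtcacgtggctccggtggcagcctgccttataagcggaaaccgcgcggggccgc
Fasn: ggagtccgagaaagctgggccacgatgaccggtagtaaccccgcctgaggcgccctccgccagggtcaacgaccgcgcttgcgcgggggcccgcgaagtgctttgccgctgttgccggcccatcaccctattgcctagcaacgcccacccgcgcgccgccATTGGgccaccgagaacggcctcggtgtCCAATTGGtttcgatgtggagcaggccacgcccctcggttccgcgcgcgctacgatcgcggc
Over the 250 bases before a RefSeq start, searched on both strands, CCAAT was present for 14 of the 15 sterol enzymes that had an entry, for 4 of 5 regulators and for 2 of 6 fatty acid enzymes, against 37.5% of 27025 genes with an entry. A gene counted if any of its starts had the motif, and Dhcr7 had it only before a start inside the annotated gene. Counted by start, CCAAT was present at 14 of 18, 5 of 10 and 2 of 6 in the same order, against 33.85% of all 32851 starts. TCACNCCAC was present for 1 of 15 sterol enzymes (Hmgcs1), for 0 of the other 11 members and for 1.23% of all genes with an entry. In no member did the 2 motifs overlap. In all, 26 of the 33 members had an entry. Fdps, Fdft1, Sqle, Stard4, Scd1, Scd2 and Fads1 had none. A match describes the letters only.

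**Figure D1:**
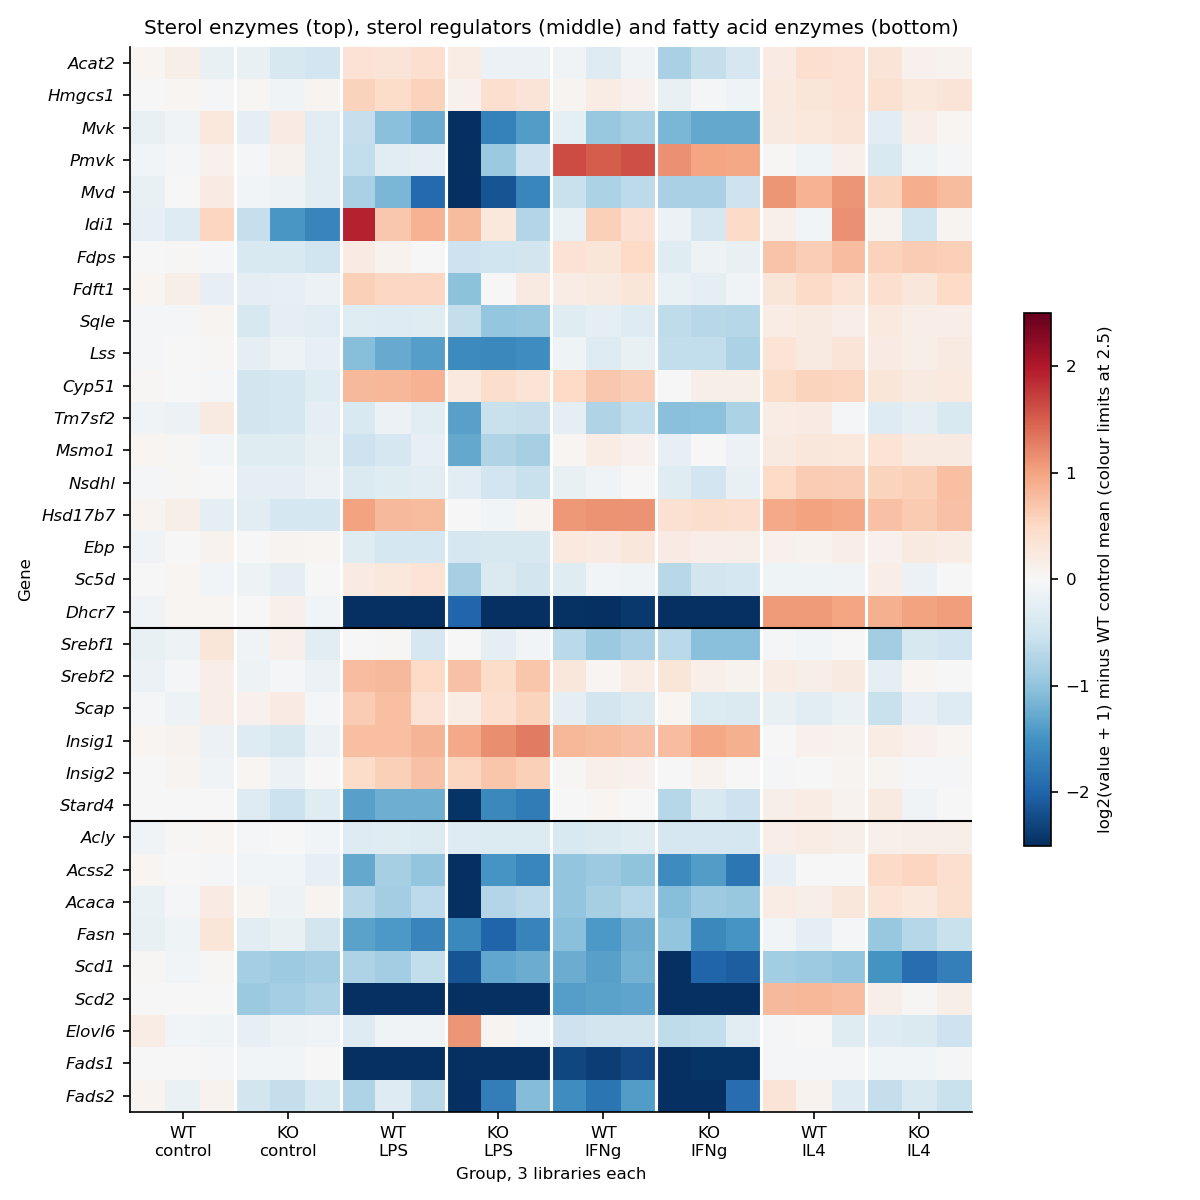
Each row is a member and each column a library, grouped by 3; the colour is the log2(value + 1) minus the mean of the WT control libraries, with the colour scale ending at 2.5 in both directions. Dhcr7, Scd2 and Fads1 are dark blue with LPS in both genotypes, Hsd17b7 and Cyp51 are red in all treated WT groups and paler in the KO groups, and the first KO LPS column has several dark cells of low counts.

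The activated WT macrophages are described first. The 3 treatments were each compared with the same WT control libraries, so these comparisons share samples. Differences are log2 differences of the value plus 1, with the standard error, and adjusted p-values are limma's with Benjamini-Hochberg adjustment over all 18637 genes, with a call below 0.05.

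With LPS the sterol enzymes went both ways, as all genes tested did. Of the 18, 6 rose and 7 fell in WT cells, with a median of -0.29, while 25.5% of all genes tested rose and 27.8% fell with a median of -0.06. Without KO LPS replicate 1, whose scatter enters the shared error, 7 rose and 9 fell, against 27.5% and 31.4% of all genes. Hsd17b7, a reductase in the removal of the sterol methyl groups (ENSMUSG00000026675, chr1:169949535-169969241, minus strand), rose from 201, 213 and 164 to 387, 337 and 333 normalised counts. All LPS libraries lay above all controls, a difference of 0.88 ± 0.10, adjusted p = 2.9e-08. Cyp51, the lanosterol demethylase (ENSMUSG00000001467, chr5:4081145-4104746, minus strand), rose from 1469.7, 1456 and 1419 to 2548, 2590.2 and 2636, a difference of 0.84 ± 0.06, adjusted p = 4.2e-12. Hmgcs1, which makes HMG-CoA early in the pathway, rose by 0.54 ± 0.07, adjusted p = 1.2e-07, with 2867, 3021 and 2828 in control and 4349.5, 4011 and 4327 in LPS libraries. The next 3 rises were smaller or less secure: Fdft1, squalene synthase (0.54 ± 0.18), Acat2, the cytosolic thiolase (0.36 ± 0.13), and Sc5d, a late desaturase (0.27 ± 0.10). Fdft1 lost its call without WT control replicate 3 (adjusted p = 0.077), Acat2 without WT control replicate 3 or WT LPS replicate 3 (adjusted p = 0.072 to 0.13) and Sc5d without WT control replicate 3 or WT LPS replicate 2 or 3 (adjusted p = 0.054 to 0.085).

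Dhcr7, the last enzyme of the pathway, fell furthest with LPS, from 616, 676 and 681 to 85.6, 79.8 and 90.4, which left 13% of the control mean (-2.93 ± 0.22, adjusted p = 3.2e-11). Lss, which closes squalene epoxide to lanosterol, fell from 758, 787 and 796 to 371, 326 and 301 (-1.23 ± 0.08, adjusted p = 6.8e-13). Mvk, mevalonate kinase, fell from 129.9, 139 and 176 to 97.8, 70.9 and 61.9 (-0.95 ± 0.25, adjusted p = 0.0024). In each of these 3 genes every LPS library lay below every control library. The other falls were Ebp (-0.39 ± 0.06), Msmo1 (-0.38 ± 0.09), Nsdhl (-0.32 ± 0.09) and Sqle, squalene epoxidase (-0.31 ± 0.07). These 7 falls kept their call in every fit that left out 1 library, as did the rises of Hmgcs1, Cyp51 and Hsd17b7. Mvd, which decarboxylates mevalonate pyrophosphate, stood at 159, 125 and 71.4 against 245, 277 and 320.0. That difference was -1.30 ± 0.90, adjusted p = 0.24 in the fit of all libraries and -1.30 ± 0.19, adjusted p = 1.3e-06 without KO LPS replicate 1, where Mvd had 0 reads. Pmvk changed in the same way, from -0.38 ± 0.28, adjusted p = 0.28 to -0.38 ± 0.12, adjusted p = 0.0081. Idi1, the isomerase, was a low gene, at 53, 21.5 and 25 with LPS and 11.3, 10.3 and 19.5 in control libraries. It was called only when 1 of 3 libraries was left out: WT control replicate 3, WT LPS replicate 2 or KO LPS replicate 1 (adjusted p = 0.022 to 0.037).

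The regulators mostly rose with LPS: 4 of 6 rose and 1 fell, against 25.5% and 27.8% of all genes tested. Insig1, an anchor of Scap in the endoplasmic reticulum (ENSMUSG00000045294, chr5:28071363-28078662, plus strand), went from 1669, 1704 and 1461 to 2703, 2712 and 2911 (0.79 ± 0.08, adjusted p = 7.6e-09). Srebf2, which encodes the factor that mainly drives sterol genes, went from 2087, 2253 and 2589 to 3938, 4013 and 3262 (0.69 ± 0.09, adjusted p = 7.2e-07). Insig2 (0.59 ± 0.07, adjusted p = 6.8e-08) and Scap (0.58 ± 0.12, adjusted p = 0.00023) rose too. Stard4, a carrier of cholesterol between membranes, went against them and fell from 1300.4, 1310.4 and 1299 to 505, 556 and 558 (-1.27 ± 0.14, adjusted p = 1.8e-08). These 5 calls held in every fit that left out 1 library. Srebf1, at 853, 887 and 1185 and 962, 989 and 718, was not called (-0.13 ± 0.14, adjusted p = 0.48).

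The fatty acid enzymes went one way with LPS: 6 of 9 fell and none rose, with a median of -0.75, against 27.8% of all genes that fell. Scd2 (ENSMUSG00000025203, chr19:44293674-44306864, plus strand), a stearoyl-CoA desaturase that puts the first double bond into saturated fatty acids, fell from 1628, 1641 and 1629 to 118, 97.5 and 79.7, to 6.03% of control (-4.06 ± 0.19, adjusted p = 2.1e-15). Fads1, a desaturase of polyunsaturated fatty acids, fell from 2977, 2980.1 and 2885 to 497, 477 and 470.1, to 16.3% (-2.61 ± 0.06, adjusted p = 2.8e-21). Fasn, fatty acid synthase itself, fell from 901, 939 and 1248 to 404, 375 and 325 (-1.47 ± 0.15, adjusted p = 8.3e-09). The 3 genes had no overlap between LPS and control libraries. Smaller falls were seen in Scd1 (-0.75 ± 0.18), Acaca, the carboxylase that makes malonyl-CoA (-0.74 ± 0.29), and Acly, which makes acetyl-CoA from citrate (-0.32 ± 0.04). The call of Acaca was lost without WT control replicate 2 or 3 or WT LPS replicate 1 or 2 or 3 (adjusted p = 0.053 to 0.11). Acss2, which makes acetyl-CoA from acetate, stood at 81.5, 113 and 99.97 against 206, 198 and 195 and was called only without KO LPS replicate 1 (-1.03 ± 0.87, adjusted p = 0.35 with it, -1.03 ± 0.12, adjusted p = 5.4e-08 without). So was Fads2 (-0.60 ± 0.74, adjusted p = 0.54 with it, -0.60 ± 0.24, adjusted p = 0.035 without), and 8 of 9 were then lower, against 31.4% of all genes.

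Scd1 (ENSMUSG00000037071, chr19:44394455-44407879, minus strand) and Scd2 belong to the same gene family and lie on the same chromosome. How the counting treated reads that match both is not given in the sources used here, so their levels are uncertain to that extent. Per kilobase of exon, Scd2 stood at 299 ± 1.27 (SD, n = 3) in WT control cells and Scd1 at 108 ± 3.89. With LPS the order was turned, with Scd2 at 18 ± 3.52 and Scd1 at 64.3 ± 5.77, and the libraries of the 2 genes did not overlap in either group.

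With IFNg the sterol enzymes of WT cells also went both ways: 5 rose and 5 fell, with a median of 0.01. All genes tested did so too, with 22.5% and 22.6%. The counts were 6 and 6 when KO LPS replicate 1 was left out, against 24.8% and 26.7%. Pmvk, phosphomevalonate kinase, rose most, from 263, 271 and 296 to 855, 794 and 842 (1.59 ± 0.28, adjusted p = 4.2e-05). Every IFNg library lay above every control library, whereas the LPS libraries had been at 179, 226 and 236. Hsd17b7 rose to 407, 421 and 419 (1.11 ± 0.10, adjusted p = 5.3e-10) and Cyp51 to 2049, 2301 and 2214 (0.59 ± 0.06, adjusted p = 3.5e-09). Fdps, farnesyl pyrophosphate synthase (0.38 ± 0.08), and Ebp, a sterol isomerase (0.24 ± 0.06), rose as well. Dhcr7 fell to 117, 108 and 123, or 17.6% of control (-2.49 ± 0.22, adjusted p = 8.8e-10), and Sqle fell to 1277, 1321 and 1259.9 (-0.29 ± 0.07, adjusted p = 0.0014). These 7 calls held in every fit that left out 1 library. Mvk (-0.67 ± 0.25) lost its call without WT control replicate 2 or 3 or WT IFNg replicate 2 or 3 (adjusted p = 0.052 to 0.14), Tm7sf2, a sterol reductase (-0.54 ± 0.20), without WT control replicate 3 or WT IFNg replicate 2 or 3 (adjusted p = 0.087 to 0.14), and Lss (-0.21 ± 0.08) without WT control replicate 2 or 3 or WT IFNg replicate 2 or 3 (adjusted p = 0.054 to 0.18). Mvd (-0.67 ± 0.19, adjusted p = 0.004) and Fdft1 (0.23 ± 0.09, adjusted p = 0.025) were called only without KO LPS replicate 1.

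Among the regulators, Insig1 rose with IFNg to 2847, 2798 and 2688 (0.79 ± 0.08, adjusted p = 9.4e-09). Srebf1, which encodes the factor that mainly drives fatty acid genes, fell from 853, 887 and 1185 to 604, 503 and 552 (-0.80 ± 0.14, adjusted p = 4.5e-05). Scap fell by a smaller amount (-0.35 ± 0.12, adjusted p = 0.022), a call lost without WT control replicate 3 or WT IFNg replicate 2 or 3 (adjusted p = 0.053 to 0.13). Srebf2 (0.18 ± 0.09, adjusted p = 0.14) was called only without WT control replicate 3 (adjusted p = 0.038).

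The fatty acid enzymes again only fell with IFNg, 6 of 9, with a median of -1.24, against 22.6% of all genes. Fads1 went to 611, 576 and 619.8 (-2.29 ± 0.06, adjusted p = 6.6e-20), Scd2 to 631, 641 and 650.0 (-1.35 ± 0.19, adjusted p = 1.6e-06) and Scd1 from 543, 508 and 537 to 224, 206 and 233 (-1.26 ± 0.18, adjusted p = 1.9e-06). Fasn (-1.24 ± 0.15, adjusted p = 2e-07) and Acly (-0.35 ± 0.04, adjusted p = 5.9e-08) fell too, and these 5 calls held in every fit that left out 1 library. Acaca (-0.84 ± 0.29, adjusted p = 0.019) lost its call without WT control replicate 3 or WT IFNg replicate 1 (adjusted p = 0.065 to 0.077). All 9 enzymes were lower without KO LPS replicate 1, against 26.7% of all genes, the added ones being Fads2 (-1.59 ± 0.24, adjusted p = 2.9e-06), Acss2 (-0.97 ± 0.12, adjusted p = 2.1e-07) and Elovl6, an elongase (-0.48 ± 0.15, adjusted p = 0.0072).

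IL4 raised sterol enzymes and lowered none. In WT cells 7 of 18 rose, with a median of 0.32, against 10.6% of all genes tested that rose and 9.56% that fell. Dhcr7, which had dropped with LPS and IFNg, went from 616, 676 and 681 to 1367, 1367 and 1311 (1.04 ± 0.22, adjusted p = 0.0011). Hsd17b7 went to 370.1, 383 and 376 (0.97 ± 0.10, adjusted p = 2.6e-08) and Fdps from 409, 411 and 391 to 666, 622 and 692 (0.71 ± 0.08, adjusted p = 9.1e-08). Nsdhl, a sterol dehydrogenase (0.58 ± 0.09), Cyp51 (0.52 ± 0.06), Hmgcs1 (0.31 ± 0.07) and Lss (0.30 ± 0.08) rose as well, and all 7 calls held in every fit that left out 1 library. In the fit without KO LPS replicate 1, 12 of 18 rose, against 12.6% of all genes, and 12.8% of all genes fell. The added ones were Mvd (1.02 ± 0.19, adjusted p = 0.00014), at 599.5, 509 and 598 against 245, 277 and 320.0, and Fdft1, Msmo1, Sqle and Acat2, with adjusted p-values of 0.0019, 0.0033, 0.0047 and 0.04.

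No regulator was called with IL4, in the fit with or without KO LPS replicate 1, and the median of the 6 was 0.04. In the fatty acid arm, the 2 stearoyl-CoA desaturases went apart: Scd2 rose from 1628, 1641 and 1629 to 2870.3, 2908 and 2803 (0.81 ± 0.19, adjusted p = 0.0024), while Scd1 fell from 543, 508 and 537 to 289, 281 and 267 (-0.92 ± 0.18, adjusted p = 0.00035). Neither gene's IL4 libraries overlapped its controls. The adipocyte markers summed to more in the same IL4 libraries (13.7 to 15.1 against 0 to 1.08 in control), and their part in the result was not tested. Acly rose slightly (0.16 ± 0.04, adjusted p = 0.0045), a call lost without WT control replicate 1 (adjusted p = 0.051), and the other 6 enzymes were not called, among them Fasn (-0.11 ± 0.15, adjusted p = 0.74) and Fads1 (-0.04 ± 0.06, adjusted p = 0.79).

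**Figure D2:**
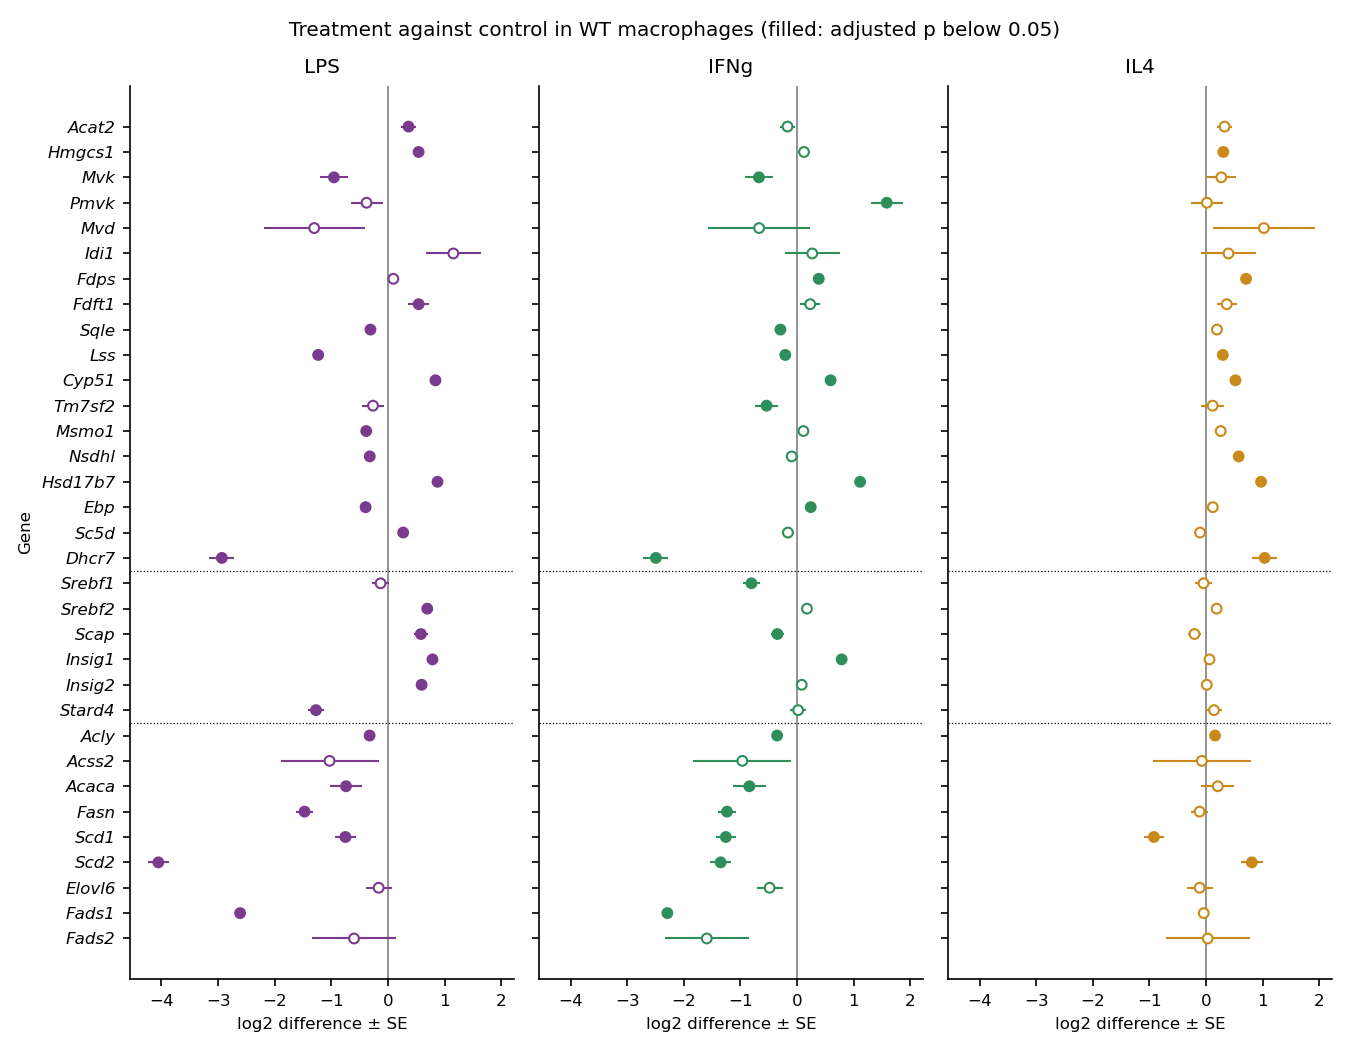
Log2 difference of each treated WT group from WT control with its standard error, members in pathway order from top to bottom, dotted lines between sterol enzymes, regulators and fatty acid enzymes; filled points have an adjusted p below 0.05. Dhcr7 lies at -2.93 with LPS, -2.49 with IFNg and 1.04 with IL4, and the fatty acid enzymes lie at or left of 0 with LPS and IFNg.

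The genotypes were then compared within each treatment, which asks whether the lipid synthesis genes differ without Cited2. In control medium the KO cells had slightly lower sterol transcripts. Of 18 sterol enzymes 4 were lower and none higher, with a median of -0.19 and 16 of 18 below 0, against 3.05% of all genes tested that were lower and 4.11% that were higher, with a median of 0. Cyp51 stood at 1058, 1072 and 1167 in KO and 1469.7, 1456 and 1419 in WT control libraries (-0.40 ± 0.06, adjusted p = 2.9e-05). Fdps stood at 309, 309 and 287 against 409, 411 and 391 (-0.42 ± 0.08, adjusted p = 0.00054). Both genes had every KO library below every WT library and kept their call in every fit that left out 1 library. Hsd17b7 (-0.38 ± 0.10, adjusted p = 0.013) lost its call without WT control replicate 1 or 2 or KO control replicate 2 or 3 (adjusted p = 0.06 to 0.11), and Sqle (-0.30 ± 0.07, adjusted p = 0.0088) without WT control replicate 3 or KO control replicate 1 (adjusted p = 0.059 to 0.077). Of the regulators, Insig1 was lower in KO control cells, at 1280.5, 1213 and 1457 against 1669, 1704 and 1461 (-0.29 ± 0.08, adjusted p = 0.024), a call lost without WT control replicate 1 or 2 or KO control replicate 1 or 2 (adjusted p = 0.099 to 0.16). Leaving out KO LPS replicate 1, Msmo1 (-0.26 ± 0.06, adjusted p = 0.008) and Stard4 (-0.39 ± 0.08, adjusted p = 0.0015) were lower as well, so that 5 of 18 enzymes were lower, against 4.44% of all genes.

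The fatty acid arm in control medium differed in the stearoyl-CoA desaturase genes Scd1 and Scd2. Scd1 stood at 293, 281 and 288 in KO and 543, 508 and 537 in WT cells, 54.3% of the WT mean (-0.88 ± 0.18, adjusted p = 0.0017). Scd2 stood at 861, 906 and 961 against 1628, 1641 and 1629, 55.7% (-0.84 ± 0.19, adjusted p = 0.0045). Both held in every fit that left out 1 library, and the other 7 fatty acid enzymes were not called, against 3.05% of all genes that were lower, with Fasn at -0.30 ± 0.15, adjusted p = 0.35 and Fads1 at -0.05 ± 0.06, adjusted p = 0.87. The summed adipocyte markers in the same KO libraries were 0 to 1.84.

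With LPS the sterol enzymes were lower in KO cells along most of the pathway. Of 18, 14 were lower and none higher, with a median of -0.57, against 12.5% of all genes tested lower, 9.7% higher and a median of -0.06. Leaving out KO LPS replicate 1 gave 13 of 18 lower, with a median of -0.47, against 9.78% of all genes. All 18 log2 differences were below 0 in both fits. In a fit of the 6 LPS libraries alone, which has fewer libraries to estimate the error from, 4 of 18 were called lower (Hsd17b7, Cyp51, Fdps and Sc5d). The other 10 of the 14 that were lower in the fit of all libraries had adjusted p-values of 0.066 to 0.55. Over all genes the fit of all libraries gave 1808 higher and 2333 lower, and DESeq2 with its own scaling 1932 and 1629. Hsd17b7 stood at 189, 183 and 200.3 in KO and 387, 337 and 333 in WT cells (-0.88 ± 0.10, adjusted p = 2.9e-07; -0.87 ± 0.10 without replicate 1). Sc5d (ENSMUSG00000032018, chr9:42251595-42264256, minus strand) stood at 803, 1109 and 1041 against 1647, 1730.0 and 1809 (-0.82 ± 0.10, adjusted p = 1.1e-06; -0.68 ± 0.09 without). Fdps stood at 284, 285 and 292 against 465, 430.4 and 401 (-0.59 ± 0.08, adjusted p = 3.1e-06; -0.58 ± 0.08 without). No KO library reached a WT library in these 3 genes.

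The other sterol enzymes that stayed lower in every fit that left out 1 library were Cyp51 (-0.49 ± 0.06; -0.44 ± 0.06 without KO LPS replicate 1), Sqle (-0.53 ± 0.07; -0.65 ± 0.06 without), Msmo1 (-0.57 ± 0.09; -0.41 ± 0.07 without), Lss (-0.35 ± 0.08; -0.35 ± 0.08 without) and Fdft1 (-0.81 ± 0.18; -0.44 ± 0.10 without). Fdft1 had 189.0 normalised counts in KO LPS replicate 1 and 380.7 and 448.1 in the other 2, so its size rests in part on that library. Cyp51 stood at 1725, 1969 and 1844 in KO LPS libraries, below every WT LPS library and above every WT control library. Mvd had 0 reads in KO LPS replicate 1 and 62.1 and 88.9 normalised counts in the others, against 159, 125 and 71.4 in WT cells. Its difference of -2.67 ± 0.90, adjusted p = 0.034 became -0.59 ± 0.21, adjusted p = 0.047 without that library, and the call was lost without WT LPS replicate 1 or 2 (adjusted p = 0.087 to 0.11). Mvk went from -0.94 ± 0.25, adjusted p = 0.0084 to -0.59 ± 0.21, adjusted p = 0.046, and was not called without WT LPS replicate 1 (adjusted p = 0.061). Pmvk (-0.94 ± 0.28, adjusted p = 0.017; -0.34 ± 0.13 without KO LPS replicate 1; lost without WT LPS replicate 2 or 3 or KO LPS replicate 1 (adjusted p = 0.055 to 0.069)), Tm7sf2 (-0.57 ± 0.20, adjusted p = 0.043; -0.30 ± 0.16 without KO LPS replicate 1; lost without WT LPS replicate 1 or 2 or 3 or KO LPS replicate 1 (adjusted p = 0.055 to 0.22)), Acat2 (-0.40 ± 0.13, adjusted p = 0.033; -0.51 ± 0.13 without KO LPS replicate 1; lost without WT LPS replicate 1 or 2 or 3 or KO LPS replicate 2 or 3 (adjusted p = 0.058 to 0.09)) and Hmgcs1 (-0.25 ± 0.07, adjusted p = 0.0064; -0.17 ± 0.06 without KO LPS replicate 1; lost without KO LPS replicate 1 (adjusted p = 0.053)) were less secure. Dhcr7 at 165, 54.1 and 66.3 against 85.6, 79.8 and 90.4 was not called in the full fit (-0.02 ± 0.22, adjusted p = 1) and was lower without KO LPS replicate 1 (-0.50 ± 0.10, adjusted p = 0.00037), as was Idi1 (-1.39 ± 0.48, adjusted p = 0.037).

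The regulators did not share that direction. Insig1 was higher in KO LPS cells, at 3095, 3593 and 3973 against 2703, 2712 and 2911, with no overlap (0.35 ± 0.08, adjusted p = 0.0025; 0.45 ± 0.08 without KO LPS replicate 1). Stard4 was lower, at 236, 425 and 387 against 505, 556 and 558 (-0.67 ± 0.14, adjusted p = 0.0008; -0.41 ± 0.09 without). Srebf1 (0.03 ± 0.14, adjusted p = 0.92; -0.02 ± 0.15 without), Srebf2 (-0.07 ± 0.09, adjusted p = 0.67; -0.12 ± 0.10 without), Scap (-0.19 ± 0.12, adjusted p = 0.3; -0.08 ± 0.12 without) and Insig2 (0.01 ± 0.07, adjusted p = 0.99; 0.04 ± 0.07 without) were not called. Neither SREBP gene thus passed the test where most of the sterol enzymes were lower. In the fit of the 6 LPS libraries alone, Insig1 and Stard4 lost their calls (adjusted p = 0.15 and 0.23).

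Of 9 fatty acid enzymes 5 were lower in KO LPS cells and none higher, with a median of -0.58, against 12.5% of all genes that were lower. Leaving out KO LPS replicate 1, again 5 were lower, with a median of -0.36, against 9.78% of all genes. None was called in the fit of the 6 LPS libraries alone, where those 5 had adjusted p-values of 0.14 to 0.56. Scd2 stood at 23.6, 61.5 and 43.8 against 118, 97.5 and 79.7, where 1 read of KO LPS replicate 1 gave its 23.6 (-1.26 ± 0.19, adjusted p = 2.2e-05; -0.89 ± 0.12 without that library). Scd1 stood at 118, 213 and 224 against 309.8, 289 and 345 (-0.81 ± 0.18, adjusted p = 0.0016; -0.52 ± 0.14 without). Fads1 stood at 331, 399.8 and 411 against 497, 477 and 470.1 (-0.35 ± 0.06, adjusted p = 0.00023; -0.25 ± 0.05 without). The 3 calls held in every fit that left out 1 library, and each gene's KO libraries lay below its WT libraries. Acss2 and Fads2 had 0 reads in KO LPS replicate 1. Acss2 had a difference of -2.55 ± 0.87, adjusted p = 0.036 with it and -0.52 ± 0.14, adjusted p = 0.007 without, and lost its call without WT LPS replicate 1 or 2 or 3 (adjusted p = 0.07 to 0.095). Fads2 had -2.44 ± 0.74, adjusted p = 0.02 with it and -0.80 ± 0.27, adjusted p = 0.033 without, and lost its call without WT LPS replicate 2 (adjusted p = 0.065). Elovl6 (0.53 ± 0.23, adjusted p = 0.1) and Acaca (-0.58 ± 0.29, adjusted p = 0.16) were not called; Elovl6 passed without KO LPS replicate 2 or 3 (adjusted p = 0.021 to 0.044) and Acaca without KO LPS replicate 2 or 3 (adjusted p = 0.02 to 0.03), where KO LPS replicate 1 weighed more. Without KO LPS replicate 1, Elovl6 stood at 0.16 ± 0.16, adjusted p = 0.57 and Acaca at 0.05 ± 0.11, adjusted p = 0.82, a turn of its sign.

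**Figure D3:**
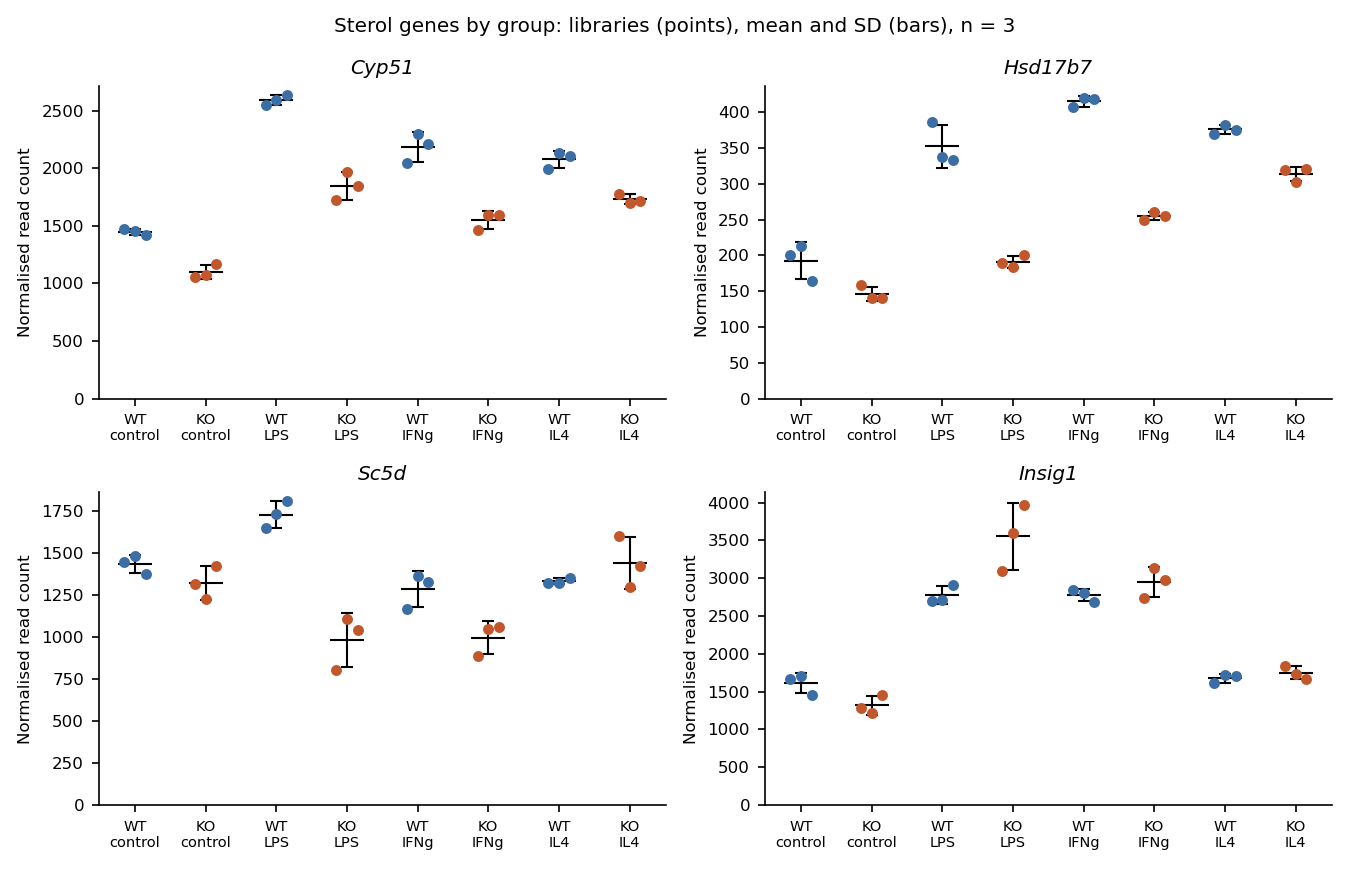
Normalised read count of Cyp51, Hsd17b7, Sc5d and Insig1 in each of the 24 libraries (points, WT in blue and KO in orange) with the group mean and SD (bars, n = 3). The KO libraries of Hsd17b7 lie below the WT libraries in all 4 treatments, Sc5d separates with LPS and IFNg, and Insig1 has its highest group mean in the KO LPS libraries, which lie at 3095 to 3973.

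With IFNg 8 of 18 sterol enzymes were lower in KO cells and none higher, with a median of -0.40 and all 18 below 0, against 4.21% of all genes tested lower, 4.83% higher and a median of -0.03. Without KO LPS replicate 1, which is in neither group but widens the shared error, 14 of 18 were lower, against 6.92% of all genes. Hsd17b7 stood at 249, 261 and 256 against 407, 421 and 419 (-0.70 ± 0.10, adjusted p = 1.5e-05). Fdps stood at 327, 371 and 355 against 521, 496 and 567 (-0.59 ± 0.08, adjusted p = 5.9e-06), and Cyp51 at 1466, 1597 and 1593 against 2049, 2301 and 2214 (-0.49 ± 0.06, adjusted p = 1.2e-06). In these 3 genes all KO libraries lay below all WT libraries. Lss (-0.47 ± 0.08, adjusted p = 0.00014) and Sqle (-0.39 ± 0.07, adjusted p = 0.00056) were lower too, and the 5 calls held in every fit that left out 1 library. Acat2 (-0.44 ± 0.13, adjusted p = 0.036) lost its call without WT IFNg replicate 1 or 3 or KO IFNg replicate 1 or 2 (adjusted p = 0.082 to 0.19), Sc5d (-0.37 ± 0.10, adjusted p = 0.017) without WT IFNg replicate 2 or 3 or KO IFNg replicate 1 (adjusted p = 0.076 to 0.12) and Hmgcs1 (-0.23 ± 0.07, adjusted p = 0.024) without WT IFNg replicate 2 or 3 or KO IFNg replicate 1 or 3 (adjusted p = 0.064 to 0.14). Dhcr7 stood at 71.2, 75.4 and 70.9 against 117, 108 and 123, with no overlap, and went from -0.67 ± 0.22, adjusted p = 0.065 to -0.67 ± 0.09, adjusted p = 2.9e-06 without KO LPS replicate 1. Pmvk, at 609.9, 545 and 538 against 855, 794 and 842, went from -0.56 ± 0.28, adjusted p = 0.3 to -0.56 ± 0.12, adjusted p = 0.0016. The other 4 added without it were Fdft1 (-0.39 ± 0.09, adjusted p = 0.0025), Msmo1 (-0.24 ± 0.06, adjusted p = 0.012), Nsdhl (-0.23 ± 0.07, adjusted p = 0.046) and Mvk (-0.56 ± 0.19, adjusted p = 0.04997).

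Stard4 was the regulator that differed with IFNg, at 799.7, 1003 and 906 in KO and 1295, 1352 and 1317 in WT cells (-0.56 ± 0.14, adjusted p = 0.0089), a call lost without KO IFNg replicate 1 (adjusted p = 0.064). Insig1 stood at 2739.6, 3136 and 2978 against 2847, 2798 and 2688 and was not called (0.09 ± 0.08, adjusted p = 0.69). In the fatty acid arm 2 of 9 were lower, or 5 of 9 without KO LPS replicate 1, against 4.21% and 6.92% of all genes. Scd2 stood at 261, 251 and 278 against 631, 641 and 650.0, 41.1% of the WT mean (-1.28 ± 0.19, adjusted p = 3.6e-05), and Scd1 at 86.4, 132 and 126 against 224, 206 and 233, 51.9% (-0.96 ± 0.18, adjusted p = 0.00056). Both calls held in every fit that left out 1 library. Acss2 (66.1, 74.8 and 56.2 against 100.41, 106 and 99.2) and Fads2 (10.2, 12.1 and 20.1 against 26, 21.1 and 28.8) had no overlap either. They were called only without KO LPS replicate 1 (-0.63 ± 0.12, adjusted p = 0.0006 for Acss2 and -0.84 ± 0.24, adjusted p = 0.018 for Fads2), and so was Fads1 (-0.19 ± 0.05, adjusted p = 0.0065).

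With IL4 few calls were made in the sterol arm. Of 18 enzymes 1 was lower and none higher, with a median of -0.11, against 3.14% of all genes tested lower and 6.14% higher. It was again 1 without KO LPS replicate 1, against 4.7%. That enzyme was Cyp51, at 1779, 1702 and 1718 against 1991, 2130.1 and 2111 (-0.26 ± 0.06, adjusted p = 0.003), a call that held in every fit that left out 1 library. Hsd17b7, at 319, 303 and 321 against 370.1, 383 and 376, had no overlap but did not pass (-0.26 ± 0.10, adjusted p = 0.11). Fdps (-0.10 ± 0.08, adjusted p = 0.57), Sqle (-0.00 ± 0.07, adjusted p = 1) and Sc5d (0.11 ± 0.10, adjusted p = 0.68) did not pass either.

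In the fatty acid arm 3 of 9 enzymes were lower in KO cells with IL4, against 3.14% of all genes. The adipocyte markers were lower in the same KO libraries, with sums of 7.81 to 11.7 against 13.7 to 15.1. That sum was all Adipoq, the other 4 markers being at 0, and its part in the result was not tested. Scd1 stood at 187, 141 and 162 against 289, 281 and 267 (-0.78 ± 0.18, adjusted p = 0.0044), and this call held in every fit that left out 1 library. Scd2 stood at 1807, 1668 and 1815 against 2870.3, 2908 and 2803 (-0.70 ± 0.19, adjusted p = 0.017), a call lost without WT IL4 replicate 1 or 2 or 3 or KO IL4 replicate 2 (adjusted p = 0.051 to 0.061). Fasn stood at 529.6, 623 and 688 against 977, 855 and 996 (-0.62 ± 0.15, adjusted p = 0.0075), a call lost without KO IL4 replicate 1 (adjusted p = 0.067). Srebf1 was lower beside them, at 525, 727 and 696 against 928, 922 and 955 (-0.54 ± 0.14, adjusted p = 0.015), a call lost without WT IL4 replicate 3 or KO IL4 replicate 1 (adjusted p = 0.061 to 0.15). Acss2 ran against its class, at 280.2, 292 and 266 in KO and 174, 198 and 199 in WT cells. It was called only without KO LPS replicate 1, in which it had 0 reads (0.56 ± 0.87, adjusted p = 0.86 with that library, 0.56 ± 0.12, adjusted p = 0.0023 without). Scd1, Scd2 and Fasn were thus the fatty acid enzymes called lower in KO cells, and only Scd1 kept its call in every such fit. Fads2 (-0.54 ± 0.74, adjusted p = 0.82) and Elovl6 (-0.29 ± 0.23, adjusted p = 0.6) were lower without overlap but did not pass. Acly (-0.02 ± 0.04, adjusted p = 0.93) and the desaturase gene Fads1 (-0.02 ± 0.06, adjusted p = 0.93) did not pass either. Of the 9 enzymes, 2 had a difference above 0.

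**Figure D4:**
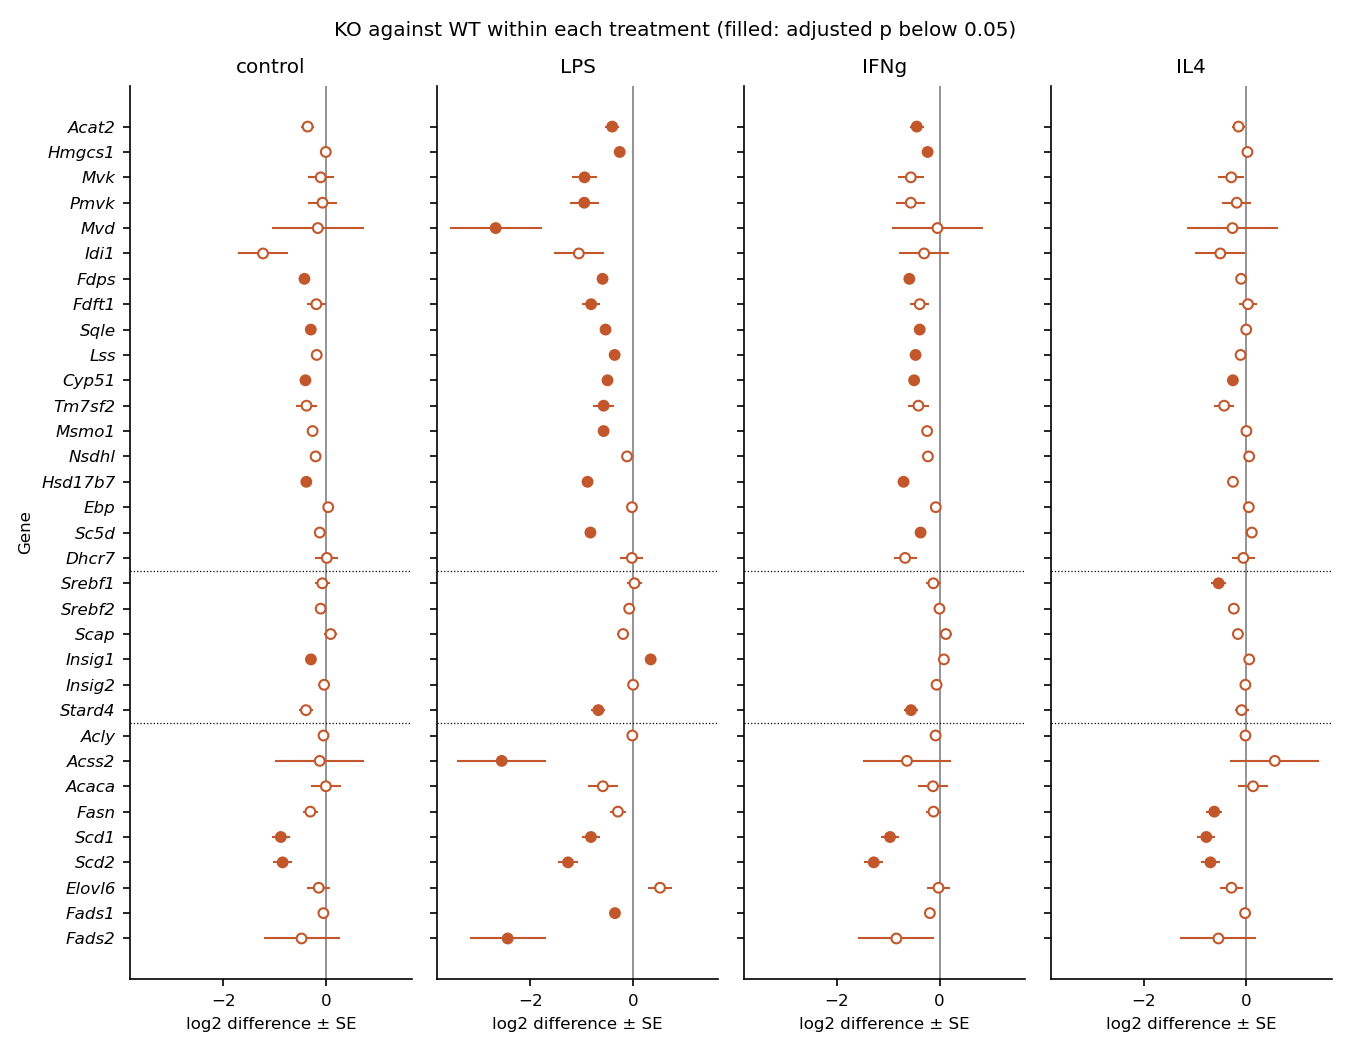
Log2 difference of KO from WT with its standard error in each treatment, members in pathway order, dotted lines between the 3 classes; filled points have an adjusted p below 0.05. All 18 sterol enzymes lie left of 0 with LPS and IFNg, Ebp and Dhcr7 at LPS by only -0.01 and -0.02, and with IL4 they have a median of -0.11 with Idi1 furthest left at -0.51. Insig1 lies right of 0 with LPS, and Mvd, Acss2 and Fads2 have wide bars in all panels.

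Across the 4 treatments 3 members were lower in KO cells every time: Cyp51, Scd1 and Scd2, with and without KO LPS replicate 1. Of all genes tested, 0.628% were lower in all 4, or 0.912% without that library. Cyp51 kept 75.9% of the WT mean in control medium, 71.2% with LPS, 70.9% with IFNg and 83.4% with IL4. Scd1 kept 54.3%, 58.8%, 51.9% and 58.5% in the same order, and Scd2 55.7%, 43.6%, 41.1% and 61.6%. Without KO LPS replicate 1 the values with LPS were 73.6% for Cyp51, 69.5% for Scd1 and 53.5% for Scd2. These 4 comparisons use separate libraries but share 1 estimate of the error.

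**Figure D5:**
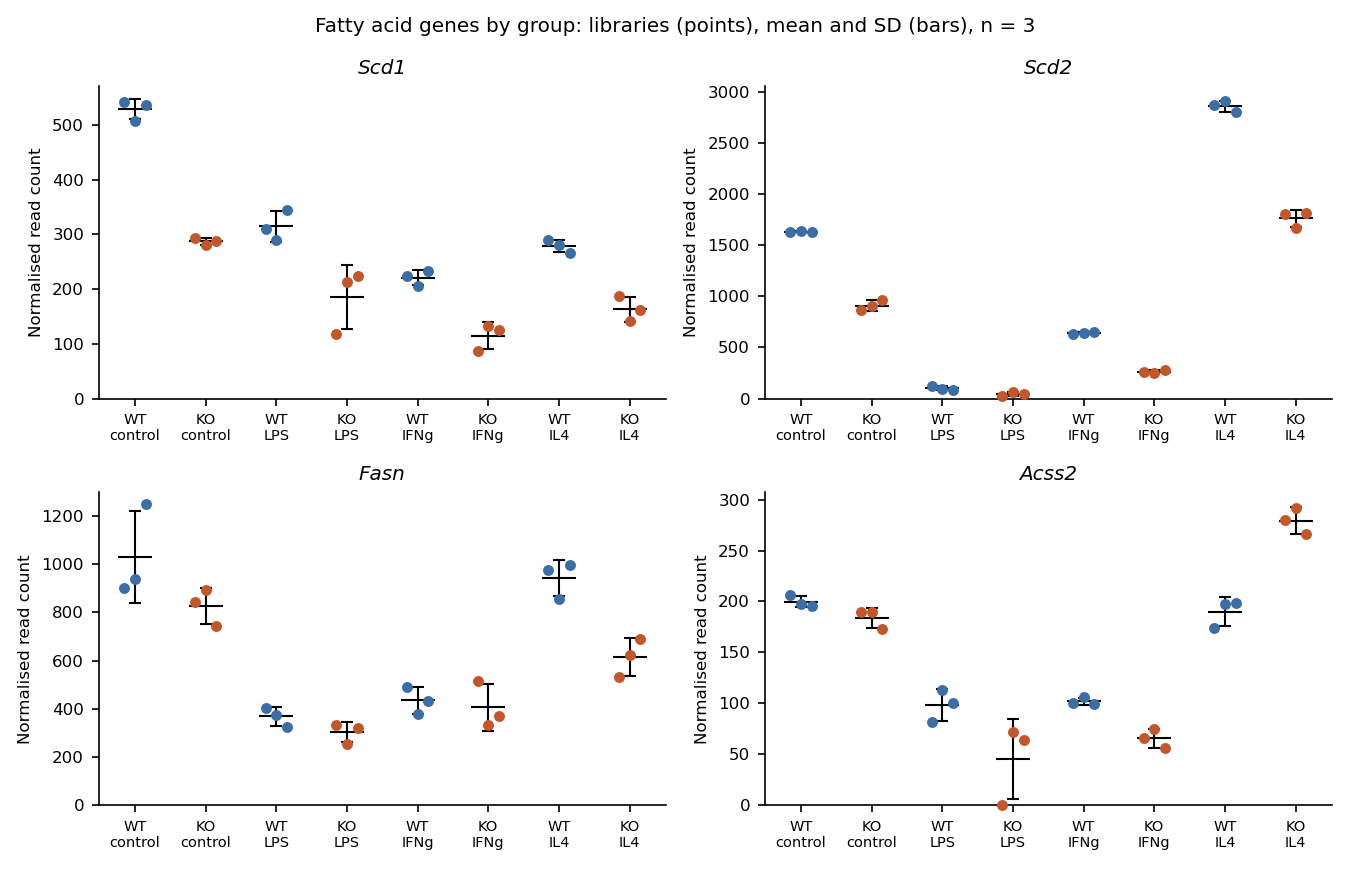
Normalised read count of Scd1, Scd2, Fasn and Acss2 in each of the 24 libraries (points, WT in blue and KO in orange) with the group mean and SD (bars, n = 3). Scd1 and Scd2 are lower in KO than in WT libraries in all 4 treatments, and Acss2 is at 0 in 1 KO LPS library and at 266 to 292 in the KO IL4 libraries.

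Whether a treatment's effect differed between the genotypes was tested as an interaction. For LPS, 2 sterol enzymes, 1 regulator and 1 fatty acid enzyme were called, against 4.29% of all genes tested in the higher and 4.5% in the lower direction. Sc5d rose with LPS in WT cells, where its range was 1373 to 1481 in control and 1647 to 1809 in LPS libraries. In KO cells the range was 1224 to 1423 in control and 803 to 1109 in LPS libraries, an interaction of -0.70 ± 0.14, adjusted p = 0.0015 (-0.56 ± 0.12 without KO LPS replicate 1). Insig1 rose in both genotypes and by more in KO cells, an interaction of 0.64 ± 0.11, adjusted p = 0.00044 (0.74 ± 0.10 without). Both calls held in every fit that left out 1 library. Hsd17b7 ranged over 141 to 158 in KO control and 183 to 200.3 in KO LPS libraries, an interaction of -0.50 ± 0.14, adjusted p = 0.022 (-0.49 ± 0.14 without KO LPS replicate 1), which lost its call without WT control replicate 3, KO control replicate 1 or WT LPS replicate 1 (adjusted p = 0.069 to 0.071). Fads1 had an interaction of -0.30 ± 0.09, adjusted p = 0.037 (-0.20 ± 0.07 without KO LPS replicate 1), lost without WT control replicate 1 or 2 or 3, KO control replicate 1 or 2 or 3, WT LPS replicate 1 or 2 or KO LPS replicate 1 (adjusted p = 0.056 to 0.09). Without KO LPS replicate 1, Sqle (-0.35 ± 0.08, adjusted p = 0.0022) and Dhcr7 (-0.52 ± 0.13, adjusted p = 0.009) were called too. Leaving out KO LPS replicate 2 or 3, which gives replicate 1 more weight, brought in Hmgcs1, Msmo1, Acss2 and Scd2, or Mvk, Pmvk, Mvd, Fdft1 and Fads2, with adjusted p-values of 0.015 to 0.049.

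For IFNg and for IL4 no member was called, against 1.32% higher and 1.18% lower of all genes for IFNg and 2.45% and 1.15% for IL4. The Insig1 interaction was 0.38 ± 0.11, adjusted p = 0.095 for IFNg and 0.35 ± 0.11, adjusted p = 0.11 for IL4. It was called for IFNg without WT control replicate 3, KO control replicate 3 or KO LPS replicate 1 (adjusted p = 0.025 to 0.039) and for IL4 without WT control replicate 3, KO control replicate 3 or KO LPS replicate 1 (adjusted p = 0.034 to 0.042). Without KO LPS replicate 1, Dhcr7 was called for IFNg (-0.69 ± 0.12, adjusted p = 0.00068), and Sqle (0.29 ± 0.07, adjusted p = 0.012) and Acss2 (0.68 ± 0.17, adjusted p = 0.02) were called for IL4. The smaller genotype difference of the sterol enzymes with IL4 than with LPS was not tested as such for the class.

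Other genes of these pathways are given by counts, to be read against all genes tested. Of those, 25.5% rose and 27.8% fell with LPS, 22.5% and 22.6% with IFNg and 10.6% and 9.56% with IL4. In KO against WT cells 4.11% were higher and 3.05% lower in control medium, 9.7% and 12.5% with LPS, 4.83% and 4.21% with IFNg and 6.14% and 3.14% with IL4. The LPS shares became 11.5% and 9.78% once KO LPS replicate 1 was left out. Of 14 tested genes of the wider sterol and isoprenoid pathway, 6 rose and 7 fell with LPS in WT cells, among them Pdss1, an enzyme of ubiquinone synthesis (3.65 ± 0.22), and Tmem97, a sterol-responsive membrane protein (-1.13 ± 0.16). In WT cells 5 rose and 7 fell with IFNg, and 4 rose and 2 fell with IL4. In KO cells 4 were lower in control medium (for instance Lbr, -0.45 ± 0.10), 3 with LPS (4 without KO LPS replicate 1; for instance Tmem97, -0.66 ± 0.16, or -0.42 ± 0.14 without), 4 with IFNg and 2 with IL4, and 1 was higher with LPS and 1 with IFNg. Of 10 genes of SREBP processing and sterol-regulated degradation, 4 rose and 2 fell with LPS, or 6 and 2 without KO LPS replicate 1. The ubiquitin ligase genes Rnf145 (2.15 ± 0.05) and Rnf139 (2.06 ± 0.07) rose most. With IFNg 5 rose and 3 fell, and with IL4 1 rose and 3 fell. In KO cells Rnf145 was slightly higher with LPS (0.18 ± 0.05; 0.19 ± 0.05 without KO LPS replicate 1) and with IL4 (0.23 ± 0.05). Over this list 2 genes were higher in KO control cells, 2 higher and 1 lower with LPS with or without that library, 1 higher and 1 lower with IFNg, and 2 higher with IL4.

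Of 9 genes of oxysterols and their receptors, 3 rose and 4 fell with LPS, 3 rose and 4 fell with IFNg, and 1 rose and 2 fell with IL4, where 10.6% and 9.56% of all genes did. Ch25h, a cholesterol hydroxylase that makes an oxysterol, had a log2 difference of 9.77 ± 0.43 with LPS and 6.12 ± 0.43 with IFNg, and Cyp27a1, another sterol hydroxylase, of -2.14 ± 0.08 and -1.22 ± 0.08. In KO LPS cells 1 was higher and 3 were lower, with or without KO LPS replicate 1. Cyp27a1 was the higher one (0.51 ± 0.08; 0.52 ± 0.09 without). Abca1, a cholesterol exporter (-0.55 ± 0.07; -0.43 ± 0.06 without), Mylip (-0.45 ± 0.10; -0.25 ± 0.06 without) and Nr1h3, which encodes LXR alpha (-0.35 ± 0.08; -0.28 ± 0.08 without), were lower. In KO control cells 2 were higher, Nr1h3 (0.44 ± 0.08) and Soat1, which esterifies cholesterol (0.34 ± 0.05). With IFNg 3 were higher and 1 lower, and with IL4 1 was higher.

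Of 17 tested genes of the wider fatty acid pathway, 5 rose and 6 fell with LPS, against 25.5% and 27.8% of all genes, 6 rose and 6 fell with IFNg (22.5% and 22.6%), and 6 rose and 1 fell with IL4 (10.6% and 9.56%). Acsl1, which activates long-chain fatty acids, stood at 3.76 ± 0.05 with LPS and Acsl3 at -2.12 ± 0.13. In KO cells 2 were lower in control medium, 5 with LPS, 8 with IFNg and 2 with IL4, against 3.05%, 12.5%, 4.21% and 3.14% of all genes, and 1 was higher in each. Leaving out KO LPS replicate 1 made it 4 lower and 2 higher with LPS. Acsl1 was lower in KO cells with LPS (-0.70 ± 0.05; -0.67 ± 0.05 without KO LPS replicate 1) and IFNg (-0.61 ± 0.05), beside Lpcat3, which builds polyunsaturated phospholipids (-0.39 ± 0.07 with LPS, -0.29 ± 0.06 without KO LPS replicate 1, and -0.38 ± 0.07 with IFNg).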

How the data were processed

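RNA from 24 libraries of mouse macrophages was compared, 3 in each of 8 groups taken from the sample titles. The deposited values were a signal per gene: read counts that the authors had divided by 1 factor per library, as read from the values, which were whole multiples of 1 read in 100% of cases (tolerance 0.05). Per the submitters' processing notes, TopHat2 and Cufflinks (each 2.2.1) and Cuffdiff were named with build mm10 (GRCm38); the gene counter, its strand setting and the annotation are not given in the sources used here. The filter kept the 18637 genes that reached a value of 1 in 3 or more libraries, and these were tested with limma 3.58.1 in R 4.3.3 on log2(value + 1), with 1 mean per group, all 24 libraries and Benjamini-Hochberg adjustment. The added 1 shrinks the log2 differences of low genes. An exact 0 in the shallow KO LPS replicate 1 can widen them instead. Mvd, Acss2 and Fads2 had such a 0, and their KO against WT differences with LPS were much smaller without that library. DESeq2 1.42.0, edgeR 4.0.16 (both on the recovered reads), a pseudocount of 8, no filter, median centring, library weights, a replicate block, fits of the compared groups only and fits leaving out 1 library were alternatives. The fit without KO LPS replicate 1 for comparisons that do not hold it was chosen after seeing the data. The tests were tried on simulated data. Replicate numbers did not pair samples (correlations of -0.064 to 0.079 over 84 pairs of the same number). Pairs within a group differed beyond sampling noise (chi-square per degree of freedom 2.03 to 24.5). The normalised values summed to 3.18e+07 to 3.33e+07 in WT LPS libraries and to 1.90e+07 to 1.92e+07 in WT control libraries. The WT IFNg libraries summed to 2.55e+07 to 2.62e+07. Scaling by total reads was not tried and would lower the LPS against control and IFNg against control differences. The rises with LPS and IFNg, the largest included, therefore depend on the scaling in their size. Small and moderate ones may depend on it in their direction too. Members and lists were chosen with earlier results of these data known. All members could be named; values in every library were given for up to 3 called members per class and comparison with the largest log2 difference, for members against their class and for some others; of the other lists up to 3 called genes each. Not every gene of the other lists is named. Depth was 1478507 to 73409343 reads, and an exact 0 in the shallowest library allows up to 70.9 normalised units (3 reads), for counting error only.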

Additional observations from a re-analysis of the deposited data

Results flagged for a closer look

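The effect of LPS on 4 members differed between the genotypes by the interaction term of limma's model. Sc5d had an interaction of -0.70 on the log2 scale, Hsd17b7 of -0.50, Fads1 of -0.30 and Insig1 of 0.64. Sc5d and Insig1 kept their calls in every fit that left out 1 library and in the fits by edgeR and DESeq2. Hsd17b7 and Fads1 did not keep theirs in all fits that left out 1 library, and Fads1 was not called by edgeR or DESeq2. KO LPS replicate 1 is the shallowest library and belongs to this comparison; its part in the sizes is given by the values without it.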

How the results depend on the processing

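Of 330 pairs of a member and a comparison, 101 were called and 62 kept their call under every alternative. Single members had 5476 alternative values, of which 132 lost and 212 gained a call. A further 15 turned their sign, either with a call in 1 of the fits or by at least 1 standard error. The other 5117 kept their call or lack of one. They include uncalled values whose sign turned by less than 1 standard error, so not all of them kept their direction. The cause was not tested, except that leaving out libraries leaves fewer samples. With LPS, KO against WT, Acaca read 0.038 by edgeR, 0.012 by DESeq2 and 0.061 with library weights, and -0.92 to 0.054 over the fits that left out 1 library. Over those fits Dhcr7 ran from -0.50 to 0.30 and Srebf1 from -0.11 to 0.12 in the same comparison. Srebf1 ran from -0.17 to 0.077 in KO against WT control cells, Scap from -0.010 to 0.19 in KO against WT with IFNg, and Acaca from -0.92 to 0.055 in the interaction with LPS. Srebf1 read 0.040 with library weights in LPS against control in WT, and -0.22 to 0.017 over the fits that left out 1 library, or -0.13 to 0.10 for IL4. Scd2 in the interaction with LPS read 0.051 by edgeR and 0.069 by DESeq2.

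Counts over all genes moved by over 1.5 times as follows. KO against WT gave 1334 genes in control medium and 3063 with library weights. With LPS it gave 4141, and 1021 in the fit of the compared groups only. With IFNg it gave 1686, with 2533 by edgeR, 2576 by DESeq2 and 3512 with weights. With IL4 it gave 1731, with 2862, 2735 and 4035. IL4 against control in WT gave 3749, and 6125 with weights. The interactions gave 1639 for LPS (2755 with weights, 862 in the compared groups only), 466 for IFNg (849 by DESeq2, 1520 with weights) and 672 for IL4 (1169 and 2338).

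Sterol enzymes called in KO against WT were 4 in control medium (9 with weights) and 14 with LPS (4 in the compared groups only). They were 8 with IFNg (13 by edgeR, 14 by DESeq2, 14 with weights, and 5 to 14 over the fits that left out 1 library) and 1 with IL4 (3 by edgeR, DESeq2, weights and the compared groups only). For IL4 against control in WT there were 7 (12 by edgeR, 11 by DESeq2, 13 with weights, 7 to 12 leaving out 1 library). In the interactions there were 2 for LPS (1 in the compared groups only, 1 to 6 leaving out 1 library), 0 for IFNg (2 by edgeR, 1 by DESeq2, 4 with weights, 1 in the compared groups only, 0 to 1 leaving out 1 library) and 0 for IL4 (2 by DESeq2, 4 with weights, 3 in the compared groups only, 0 to 1 leaving out 1 library).

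Fatty acid enzymes called in KO against WT were 5 with LPS (0 in the compared groups only, 3 to 7 leaving out 1 library), 2 with IFNg (4 by edgeR, 5 by DESeq2, 2 to 5 leaving out 1 library) and 3 with IL4 (5 by edgeR). In the interactions there were 1 for LPS (0 by edgeR, DESeq2, weights and the compared groups only, 0 to 3 leaving out 1 library), 0 for IFNg (1 by edgeR, DESeq2, weights and the compared groups only) and 0 for IL4 (1 by edgeR, DESeq2 and the compared groups only, 0 to 1 leaving out 1 library).

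The balance of higher and lower calls over all genes moved by over 10 points in KO against WT with LPS, from 1808 higher and 2333 lower to 1932 and 1629 by DESeq2 and 602 and 419 in the compared groups only. For the IL4 interaction it went from 457 and 215 to 515 and 410 by edgeR, 396 and 309 with median centring and 1346 and 992 with weights. The replicate numbers did not pair the libraries (0 of 84 correlations over 0.1). With the replicate block, no count of calls moved by over 1.5 times, and 328 of 330 member results kept their call (1 gained and 1 lost). KO LPS replicate 1, with 1478507 reads, limits low genes most.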
